A study of Mus musculus with 15 samples.

Results

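The comparison covers mice given Buyang Huanwu decoction (BYHWD) after an intracerebral haemorrhage (ICH), in which blood enters the brain, and mice with the same bleed given water. Its 10 libraries, 5 BYHWD and 5 ICH, were chosen from the 15 small RNA libraries of the series by their titles alone. Every miRNA with enough reads was tested, 652 of 683 distinct names. All mice were wild type. BYHWD mice received 6.19 g/kg of the decoction powder in distilled water by mouth each day for 14 days, and ICH mice received distilled water on the same schedule. The other 5 libraries came from sham-operated mice given water. They took part in the scaling of the counts and in the estimate of the spread. After perfusion with saline on day 14, the basal ganglia of the bleeding side were taken. The sources used here do not give strain, age, sex or the way the bleed was made. The labels also name an exosome pellet as the RNA source, so it is not settled whether whole tissue or vesicles were sequenced.

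A miRNA is a short RNA cut from a hairpin precursor, whose arms yield a 5p and a 3p product. It pairs with messenger RNAs mainly through its seed, bases 2 to 8, and lowers their stability and translation, so miRNAs with the same seed share most of their predicted targets. In the weeks after a brain bleed, microglia and incoming leukocytes clear blood and debris, and they carry miRNAs such as miR-155 and miR-142a that neurons make little of. BYHWD is an Astragalus-based herbal mixture of traditional Chinese medicine given after stroke. The comparison asks which miRNAs differ in the injured basal ganglia when it is given.

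The sequences below are those of the miRNAs that the results turn on, as far as RefSeq holds a mature sequence under the same name (GRCm38.p6), with the seed in capitals. The first 9 are among the 12 miRNAs with the smallest p-values at a mean level of 10 CPM or more. CPM are counts scaled for depth, here on library sizes corrected by TMM.
miR-296-3p: gAGGGUUGgguggaggcucucc
miR-758-3p: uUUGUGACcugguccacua
miR-7b-5p: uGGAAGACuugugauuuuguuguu
miR-770-5p: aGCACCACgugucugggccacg
miR-3086-5p: uAGAUUGUaggcccauugga
miR-760-3p: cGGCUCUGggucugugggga
miR-298-5p: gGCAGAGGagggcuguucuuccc
miR-7a-5p: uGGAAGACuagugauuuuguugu
miR-380-3p: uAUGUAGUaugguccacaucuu
The next 4 are miRNAs of leukocytes, of the inflammatory response or of the Hox clusters.
miR-155-5p: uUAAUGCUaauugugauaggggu
miR-142a-3p: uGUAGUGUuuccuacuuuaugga
miR-146a-5p: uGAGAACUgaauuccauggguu
miR-10a-5p: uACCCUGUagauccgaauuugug
Of the 9, miR-7a-5p and miR-7b-5p alone share a seed, GGAAGAC. Apart from their lengths of 23 and 24 bases they differ by A10U, counted from 1 at the 5′ end of miR-7a-5p.

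Total counts were 4684611 to 8709911 in BYHWD libraries and 6539625 to 9860236 in ICH libraries, with 1 row kept per miRNA, and at least 1 read was found for 680 to 682 miRNAs in BYHWD and 678 to 682 in ICH. The brain miRNAs miR-9-5p and miR-124-3p, a neuronal miRNA, averaged 99842 and 4638 CPM in BYHWD and 104489 and 4624 CPM in ICH, so the markers of the labelled tissue were present. Among the sham libraries, sham 4 and sham 5 stood apart. MiR-101a-3p, for example, was at most 20621 CPM in the 10 libraries compared, against 137472 and 88982 CPM in those 2. The fit shares 1 estimate of spread over the 3 groups, so these libraries enter the intervals of such miRNAs. Values without them are given below for miR-146a-5p.

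No miRNA was called between BYHWD and ICH, with called meaning an adjusted p under 0.05 in edgeR's quasi-likelihood test (0 of 652, 0%). DESeq2 and limma-voom also called 0. The lowest adjusted p by edgeR was 0.916. At an unadjusted p under 0.05 there were 31 miRNAs (4.75%), 23 with higher and 8 with lower levels in BYHWD, and DESeq2 gave 29 and limma-voom 27. The 23 include both miR-374b-5p and miR-374c-5p, which share their reads, so 1 signal is counted under 2 names. The count of 31 was 12 without BYHWD 5, 18 without ICH 4 and 55 with the BYHWD and ICH libraries alone, with no call in any of these fits. Log2 differences, BYHWD minus ICH throughout, were above 0 for 333 miRNAs (51.1%) and below 0 for 319 (48.9%), with a median of 0.00.

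**Figure D1:**
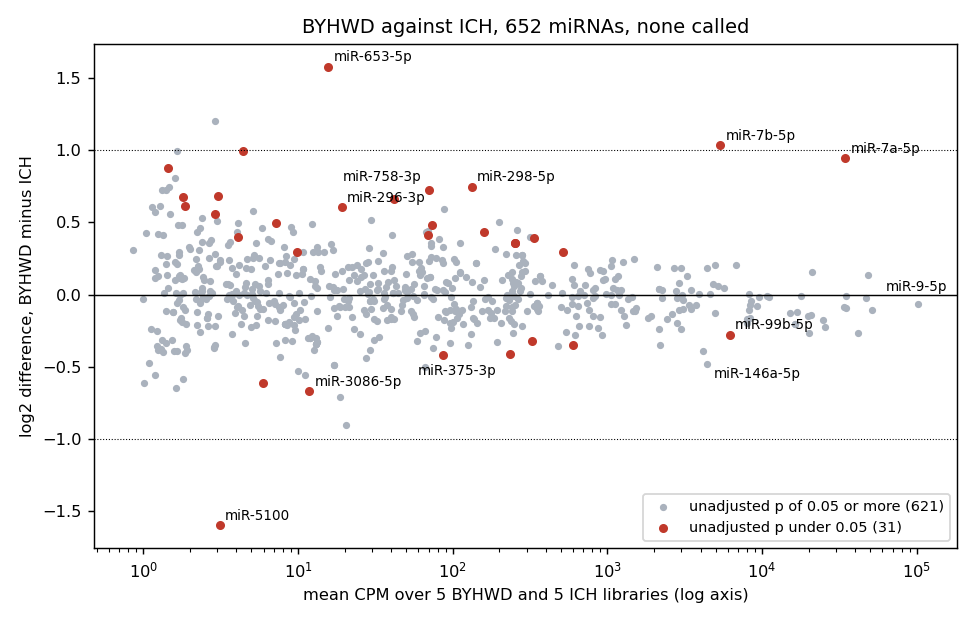
Log2 difference, BYHWD minus ICH, against mean CPM over the 10 libraries (log axis) for the 652 miRNAs, 1 point each. Red points are the 31 miRNAs with an unadjusted edgeR p under 0.05, and dotted lines mark a difference of 1 log2 unit (2-fold) either way. Most points lie close to 0 at all abundances, and 4 miRNAs lie beyond the dotted lines.

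The intervals show which differences these libraries leave possible. The 95% interval of the log2 difference lay within 1 unit of 0, a 2-fold difference either way, for 534 miRNAs (81.9%), and within a 1.5-fold difference for 301 (46.2%). Precision was lowest for rare miRNAs. In the class under 10 CPM, 160 of 230 intervals (69.6%) lay within 2-fold. The share was 163 of 193 (84.5%) for 10 to 100 CPM, 129 of 137 (94.2%) for 100 to 1000 CPM and 82 of 92 (89.1%) at 1000 CPM and over. The 10 abundant miRNAs with wider intervals were miR-7a-5p, miR-7b-5p, miR-30a-5p, miR-30e-5p, miR-34b-5p, miR-101a-3p, miR-101c, miR-139-5p, miR-146a-5p and miR-1298-5p. Differences beyond 2-fold were found for 4 miRNAs, miR-7b-5p, miR-653-5p, miR-144-5p and miR-5100, and none of the 4 was called. The last 2 had means under 10 CPM, and each rested on 1 library. MiR-5100 was at most 1.82 CPM in BYHWD, against 18.4 CPM in ICH 4 and at most 1.98 CPM in the other ICH libraries. MiR-144-5p, an erythroid miRNA, was at 14.8 CPM in BYHWD 4 and at most 2.07 CPM in the other BYHWD libraries, against at most 3.63 CPM in ICH.

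Of the 8 most abundant miRNAs, most were tightly bounded. MiR-9-5p, the brain-enriched miRNA with the highest level, was at 106755, 113964, 107418, 97164 and 73907 CPM in the 5 BYHWD libraries, against 99189, 97548, 105697, 115122 and 104890 CPM in the 5 ICH libraries. The groups overlapped, BYHWD 5 was the lowest of the 10, and the log2 difference was -0.07 (95% interval -0.33 to 0.20). Let-7g-5p, of the family that holds back growth genes and marks differentiated cells, had -0.02 (-0.29 to 0.24), let-7f-5p -0.10 (-0.43 to 0.23) and let-7i-5p -0.09 (-0.40 to 0.23). MiR-26a-5p, found in most tissues, had -0.01 (-0.28 to 0.27), and miR-127-3p, from the strand opposite the imprinted gene Rtl1, had 0.14 (-0.15 to 0.42). All of these intervals lie within 1.5-fold. The remaining 2 of the 8 most abundant miRNAs, miR-30a-5p and miR-7a-5p, had wider ones. For miR-30a-5p the log2 difference was -0.27 (-1.12 to 0.59). It stood at 30690 to 51536 CPM in BYHWD and 33034 to 60603 CPM in ICH, against 168687 and 172939 CPM in sham 4 and sham 5.

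MiR-7a-5p and miR-7b-5p gave the largest differences among abundant miRNAs. MiR-7 is known in the brain as the partner of the circular RNA Cdr1as, which carries many sites for it, and as an abundant miRNA of hormone-secreting cells. MiR-7a-5p was at 26769, 21321, 30587, 55395 and 92978 CPM in BYHWD, against 22605, 30171, 19573, 19912 and 25727 CPM in ICH. BYHWD 4 and BYHWD 5 stood above every ICH library by a wide margin, while BYHWD 1 and BYHWD 2 lay within the ICH range and BYHWD 3 just above it. MiR-7b-5p was at 4310, 3376, 4612, 9458 and 14269 CPM in BYHWD, against 3317, 4296, 3221, 2868 and 3908 CPM in ICH, with the same pair of BYHWD libraries at the top. The log2 differences were 0.94 (SE 0.36, interval 0.18 to 1.71) and 1.03 (SE 0.37, interval 0.24 to 1.83), each with an edgeR adjusted p of 0.916. Summed as a seed family (below), the 2 miRNAs stood at 23295 to 74528 CPM in sham, highest in sham 4. A sum near that of BYHWD 4, 73914 CPM, was thus also seen without a bleed, but only in sham 4, a library that stood apart. The other sham libraries were at most at 46886.5 CPM, and BYHWD 5, at 123808 CPM, was above all sham libraries.

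Without BYHWD 4 and BYHWD 5, an alternative chosen after seeing the data, the difference was 0.12 (SE 0.27) for miR-7a-5p and 0.19 (SE 0.30) for miR-7b-5p. The passenger arms of the same hairpins had smaller differences. MiR-7a-1-3p had a log2 difference of -0.25 (SE 0.15), miR-7a-2-3p one of 0.35 (SE 0.24) and miR-7b-3p, near 1 CPM, one of 0.01 (SE 0.40). The mature miR-7a-5p can come from Mir7-1 on chromosome 13 (58392779 to 58392886, minus strand, GRCm38.p6), in an intron of Hnrnpk, and from Mir7-2 on chromosome 7 (78888277 to 78888373, plus strand). MiR-7b-5p comes from Mir7b on chromosome 17 (56242988 to 56243098, plus strand), and neither of these last 2 has an annotated host gene on its strand. MiR-7a-5p, miR-7b-5p and the smooth muscle miRNA miR-143-3p had the largest excess of spread in BYHWD over ICH among miRNAs of at least 1000 CPM.

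The libraries BYHWD 4 and BYHWD 5 recur among the other miRNAs with small p-values. Of the 23 with higher levels at an unadjusted p under 0.05, 15 had these as the highest 2 of the 10 libraries, and of the 14 among them with at least 10 CPM, 12 did. MiR-374b-5p and miR-374c-5p, which share their reads, are both in these counts. Over all 652 miRNAs 39 showed this order. The 23 were picked for high BYHWD values in the same libraries, so high ranks of BYHWD libraries among them are partly built in. Without the 2 libraries 10 miRNAs had an unadjusted p under 0.05, and none was called. Leaving out the highest libraries lowers such differences by construction, and no other pair was left out for comparison. BYHWD 5 was the shallowest of the 10 libraries, at 4684611 counts, and BYHWD 4 had 7452295. Markers of blood, epithelium and neurons also stood apart in 1 or the other of them, with values given below, and their part in these differences was not tested. The summed level of the neuroendocrine list (miR-7a, miR-7b and miR-375) was 31239, 24840, 35340, 65014 and 107411 CPM in BYHWD, against 26116, 34646, 22995, 22974 and 29797 CPM in ICH, and most of it is miR-7a-5p. In bulk tissue, the number of cells of a type and the amount of the miRNA per cell cannot be told apart, whether a level is higher or lower.

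MiR-375-3p, a miRNA of pancreatic islets and other neuroendocrine cells, had lower mean levels in BYHWD, unlike miR-7. It was at 66.5, 64.9, 63.0, 84.8 and 89.2 CPM in BYHWD, against 102, 102, 115, 87.8 and 84.0 CPM in ICH. BYHWD 1 to 3 lay below all ICH libraries, and BYHWD 4 and 5 overlapped with ICH 4 and 5. The log2 difference was -0.42 (SE 0.15, edgeR adjusted p = 0.916), and without BYHWD 4 and BYHWD 5 it was -0.63 (SE 0.17, edgeR adjusted p = 0.9998). Over its 24 alternatives the adjusted p by edgeR, DESeq2, limma-voom or permutation ran from 0.493 to 0.9999. The sham libraries held 51.6 to 82.6 CPM.

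**Figure D2:**
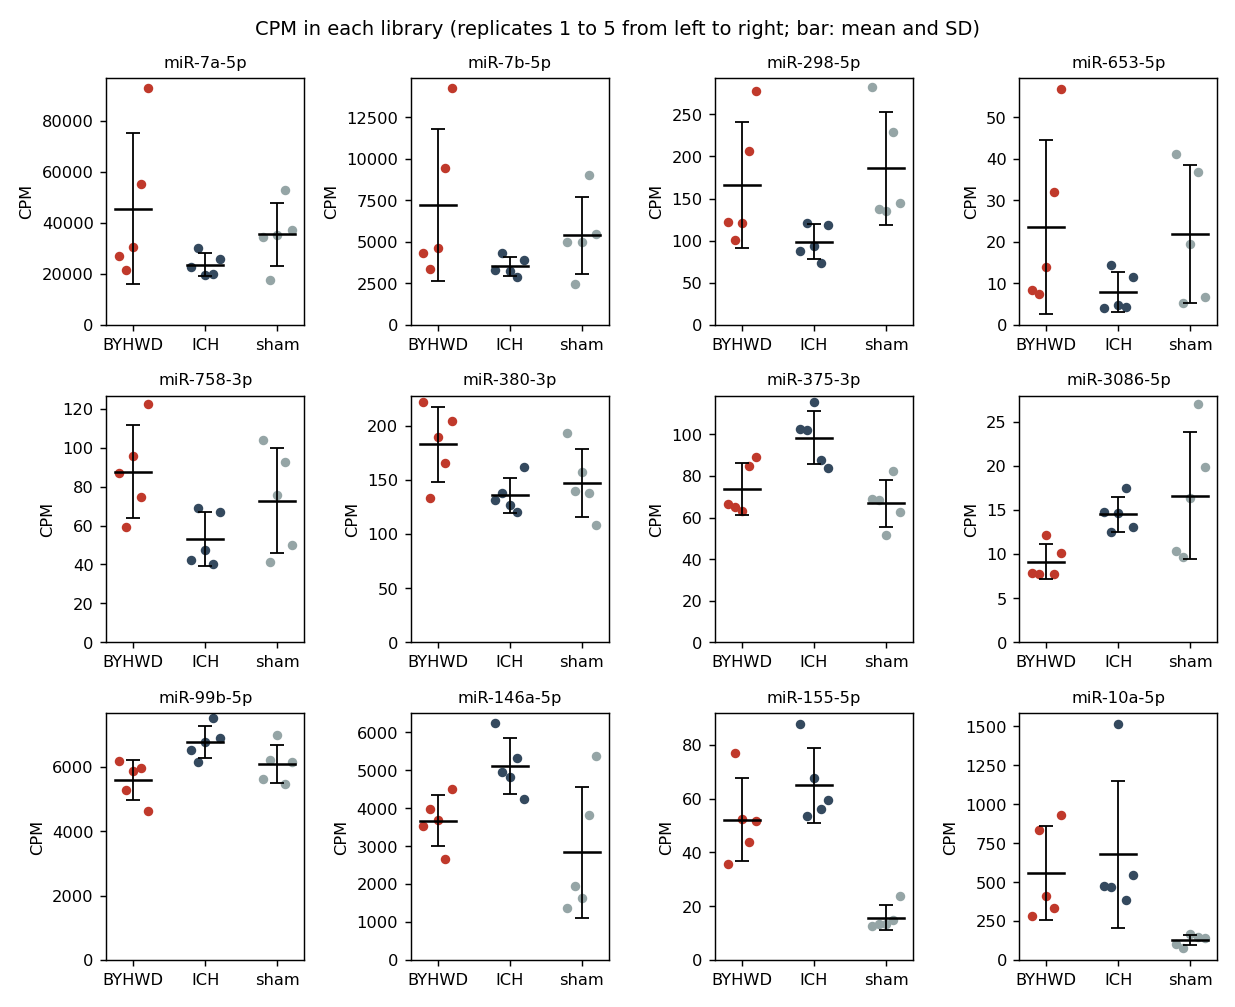
CPM in each of the 15 libraries for 12 miRNAs, with replicates 1 to 5 from left to right in each group and bars for the mean and SD. For miR-7a-5p, miR-7b-5p, miR-298-5p and miR-653-5p the BYHWD mean is set by replicates 4 and 5 (55395 and 92978 CPM for miR-7a-5p), for miR-375-3p, miR-99b-5p and miR-146a-5p most BYHWD points lie below the ICH points, and for miR-155-5p and miR-10a-5p both groups lie above the sham points.

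MiR-296 and miR-298 come from neighbouring hairpins in the imprinted Gnas region. Their hairpins lie on the minus strand of chromosome 2, at 174267047 to 174267125 and 174267504 to 174267585 (GRCm38.p6), with no annotated host gene on that strand. MiR-298-5p was at 123, 101, 121, 207 and 278 CPM in BYHWD, against 87.5, 121, 93.6, 73.5 and 119 CPM in ICH. BYHWD 4 and 5 were clearly above ICH, BYHWD 1 and 3 only slightly above its highest library, and BYHWD 2 within it. The log2 difference was 0.75 (SE 0.28), or 0.19 (SE 0.25) without BYHWD 4 and 5. MiR-296-3p, at a lower level, was at 20.1, 17.6, 19.6, 29.8 and 29.0 CPM in BYHWD, against 11.7, 18.4, 14.1, 11.7 and 19.9 CPM in ICH. Its groups overlapped only through BYHWD 2 and 3, and its difference was 0.61 (SE 0.21), or 0.30 (SE 0.22) without BYHWD 4 and 5. MiR-335-3p, from an intron of the paternally expressed gene Mest on chromosome 6, had 0.29 (SE 0.14), or 0.09 (SE 0.14) without BYHWD 4 and 5. Of the 6 members of the imprinted Gnas and Mest list, 4 had values above 0, with a list median of 0.38 beside 0.00 for all miRNAs. MiR-296-3p, miR-298-5p and miR-335-3p, 3 of the 6 (50%), had an unadjusted p under 0.05, beside 4.75% of all miRNAs. Without BYHWD 4 and 5 the median was 0.14 and no member had such a p. The lists were chosen with earlier results of these data known, so the share of 50% cannot be read as an enrichment. The neuroendocrine list had the same share, 3 of 6, with miR-7a-5p and miR-7b-5p higher and miR-375-3p lower in BYHWD. The summed level of the Gnas and Mest list, led in the 10 libraries by miR-335-3p, was 908 to 1413 CPM in BYHWD and 870 to 1060 CPM in ICH. In sham it was 1125 to 2303 CPM, above every ICH library.

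The imprinted Dlk1-Dio3 region on chromosome 12, whose miRNAs are made from the maternal copy and are abundant in neurons, is the largest list, with 86 tested members. Of these 54 had values above 0 and 32 below, with a median of 0.08, and with upper-quartile scaling, which lowers the median of all miRNAs by about this much, the split was 44 to 42 and the median 0.00. An unadjusted p under 0.05 was found for 8 members (9.3%), beside 4.75% of all 652 miRNAs. This list too was chosen with earlier results known, so the share cannot be read as an enrichment. Of the 8, 7 were above 0 (miR-134-3p, miR-376c-5p, miR-380-3p, miR-539-5p, miR-543-3p, miR-758-3p and miR-770-5p) and miR-329-3p was below, and none was called. Without BYHWD 4 and 5 no member had such a p.

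MiR-758-3p, reported in human cells to target the cholesterol transporter ABCA1, was at 86.9, 59.1, 95.6, 74.6 and 123 CPM in BYHWD, against 42.0, 68.9, 47.4, 40.2 and 67.0 CPM in ICH. The values of 4 BYHWD libraries lay above all ICH libraries, and BYHWD 2 lay among them. The log2 difference was 0.72 (SE 0.26), and 0.57 (SE 0.30) without BYHWD 4 and 5. MiR-380-3p was at 221.96, 133, 189, 165 and 204 CPM in BYHWD, against 131, 138, 126, 120 and 161 CPM in ICH, again with BYHWD 2 the exception. Its difference was 0.43 (SE 0.17), and 0.39 (SE 0.20) without BYHWD 4 and 5. For these 2 members the difference without BYHWD 4 and 5 was thus closer to that with all libraries than for miR-7.

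The hairpins of miR-758 (109712810 to 109712890) and miR-380 (109711803 to 109711863) both lie on the plus strand of chromosome 12 without an annotated host. That of miR-770 (109563692 to 109563785, same strand) overlaps an exon of the noncoding gene Meg3, an RNA of the maternal copy. MiR-770-5p had a difference of 0.66 (SE 0.25), and 0.31 (SE 0.26) without BYHWD 4 and 5, with 4 BYHWD libraries above the highest ICH value of 40.7 CPM. MiR-770-3p from the same hairpin, at 234 ± 69.0 CPM in BYHWD and 165 ± 32.3 CPM in ICH (mean ± SD, n = 5 each), had 0.50 (SE 0.24), and 0.29 (SE 0.28) without BYHWD 4 and 5. Both arms thus gave values in 1 direction, and neither was called.

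Outside these regions, miR-3086-5p was the member of the 12 smallest p-values whose groups did not overlap. Its hairpin is in an intron of the heat shock gene Hspa12a on chromosome 19 (58911673 to 58911759, minus strand). It was at 7.89, 7.76, 12.2, 7.72 and 10.1 CPM in BYHWD, against 14.7, 12.5, 14.7, 17.5 and 13.1 CPM in ICH, a log2 difference of -0.67 (SE 0.25). In an exact permutation test, two-sided, its p was 0.00794, the smallest that 5 against 5 libraries allow. Across all miRNAs only 4 had groups that did not overlap (0.613%), the other 3 all below 10 CPM and named after their values were seen. They were miR-134-3p and miR-505-5p, above ICH, and miR-8103, below it. The same exact permutation test gave 49 miRNAs with a p under 0.05 and none with an adjusted p below 0.631.

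Among more abundant miRNAs with small p-values, those with lower values in BYHWD had small differences. MiR-99b-5p, of the ancient miR-99/100 family and encoded beside let-7e, was at 6193, 5270, 5874, 5948 and 4635 CPM in BYHWD, against 6514, 6153, 6772, 7519 and 6896 CPM in ICH. Only BYHWD 1 reached the lowest ICH library, and the difference was -0.28 (SE 0.11, interval -0.52 to -0.04). MiR-151-5p had -0.35 (SE 0.14), with 3 BYHWD libraries below the lowest ICH value, and miR-674-3p had -0.41 (SE 0.18), likewise with 3. MiR-760-3p, at 78.5 ± 18.3 CPM in BYHWD and 58.9 ± 6.06 CPM in ICH (mean ± SD, n = 5 each), had 0.41 (SE 0.16), and 0.17 (SE 0.16) without BYHWD 4 and 5. The edgeR adjusted p was 0.916 for each of these 4. The other 2 large negative values among miRNAs of at least 100 CPM, miR-139-5p (-0.39, SE 0.30) and miR-378c (-0.35, SE 0.34), had larger errors. Both varied most among the sham libraries, which enter these errors. In the 10 libraries compared, 4 BYHWD libraries lay below the lowest ICH library for miR-378c and 2 for miR-139-5p. Their exact permutation p, two-sided and unadjusted, was 0.0317 and 0.0873. Neither was called in any alternative, with a lowest adjusted p of 0.493 for each.

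MiR-653-5p, chosen after its values were seen, had the highest log2 difference, 1.58 (SE 0.67, interval 0.15 to 3.00). It comes from an intron of the calcitonin receptor gene Calcr on chromosome 6 (3721301 to 3721385, minus strand). It was at 8.32, 7.35, 13.9, 31.9 and 56.8 CPM in BYHWD, against 3.95, 14.4, 4.69, 4.33 and 11.5 CPM in ICH. Once more BYHWD 4 and 5 stood above the rest, and without them the difference was 0.29 (SE 0.65). The sham libraries ranged from 5.13 to 41.1 CPM, so the miRNA varied as much without a bleed.

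**Figure D3:**
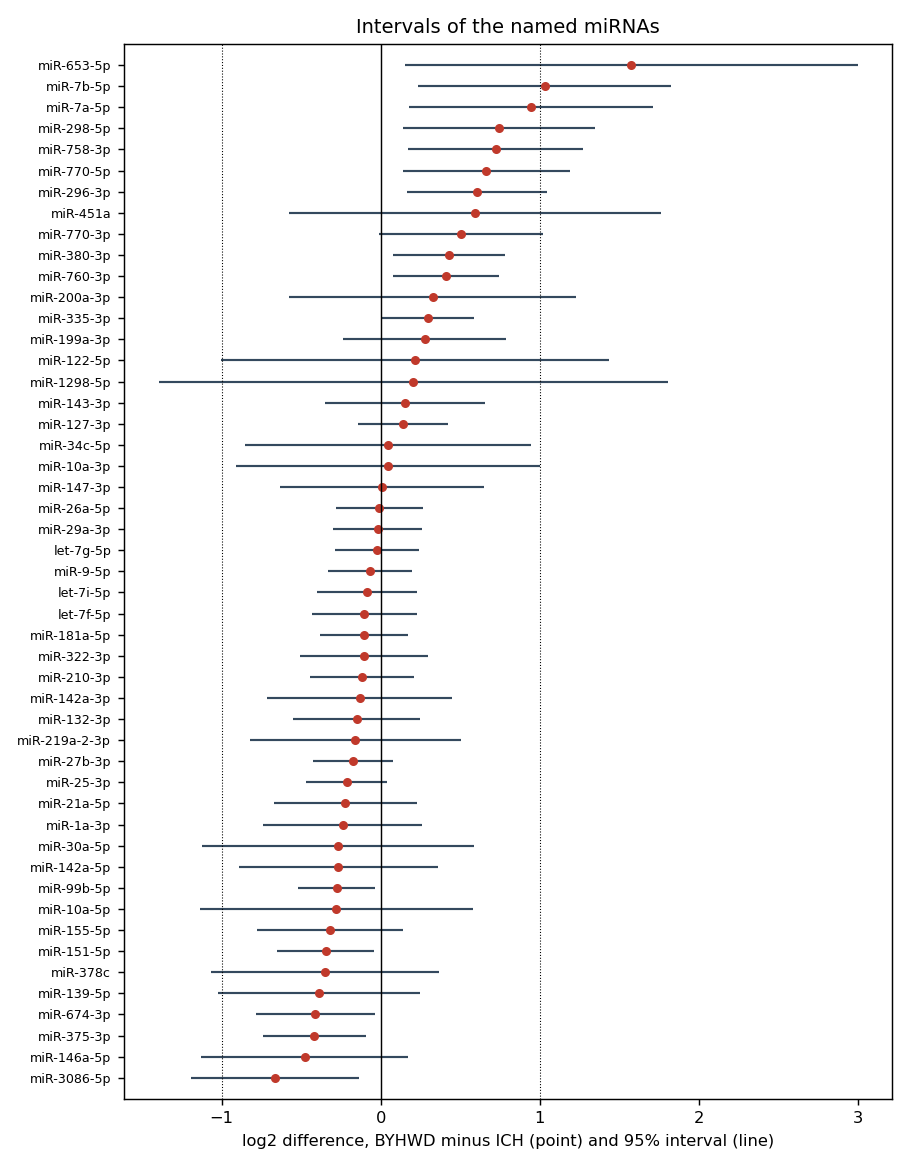
Log2 difference, BYHWD minus ICH, with its 95% interval for the 49 named miRNAs, ordered by the difference. Dotted lines mark 2-fold either way. Most intervals of the most abundant miRNAs, such as that of miR-9-5p (-0.33 to 0.20), are narrow and span 0. Those of miR-30a-5p and miR-7a-5p are wider, and that of miR-7a-5p lies above 0. The interval of miR-653-5p (0.15 to 3.00) is the widest of those that do not reach 0.

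The miRNAs called higher in ICH than in sham in the same fit, 5 of 652 (0.767%), show where the treated mice stood for the response to the bleed itself. The comparisons of BYHWD with ICH and of ICH with sham share the ICH libraries, so their values are given side by side only. The 5 were picked for high ICH values, so BYHWD values below those of ICH are partly built in. MiR-155-5p, a product of activated macrophages and microglia, was at 35.6, 76.8, 52.5, 43.8 and 51.5 CPM in BYHWD, against 87.9, 53.6, 67.8, 56.2 and 59.3 CPM in ICH. The lowest 4 BYHWD libraries lay below all of ICH, BYHWD 2 lay among them, and all 10 lay above the highest sham library at 23.9 CPM. Its log2 difference was -0.32 (interval -0.78 to 0.14, edgeR adjusted p = 0.942), beside 2.06 for ICH minus sham. MiR-142a-3p, of blood-forming lineages, was at 29.3, 85.3, 47.6, 39.7 and 61.0 CPM in BYHWD, against 52.5, 56.3, 82.2, 37.0 and 60.2 CPM in ICH, with no separation (-0.13, interval -0.71 to 0.45, beside 1.70).

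MiR-10a-5p, from a hairpin in the Hoxb cluster on chromosome 11, was at 282, 835, 410, 336 and 928 CPM in BYHWD, against 473, 467, 1513, 386 and 547 CPM in ICH. ICH 3 stood far above the rest, and the difference of -0.28 (interval -1.14 to 0.58) was 0.25 (SE 0.33) without it, beside 2.41 for ICH minus sham. MiR-10a-3p and miR-147-3p, a miRNA of stimulated macrophages, averaged 2.46 and 3.78 CPM in BYHWD and 2.34 and 3.70 CPM in ICH, with log2 differences of 0.04 (SE 0.45) and 0.01 (SE 0.30).

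MiR-146a-5p, which NF-kB switches on and which dampens signalling from Toll-like receptors, was not called after the bleed in this fit but had the largest negative difference among miRNAs of at least 100 CPM. It was at 3515, 3977, 3696, 2662 and 4496 CPM in BYHWD, against 6243, 4955, 4810, 5314 and 4241 CPM in ICH. Of the BYHWD libraries 4 lay below the lowest ICH library, and BYHWD 5 lay above it. The log2 difference was -0.48 with an SE of 0.31 in the shared fit (edgeR adjusted p = 0.942). Its sham values, 1372, 1941, 1633, 3824 and 5382 CPM, were spread widely by sham 4 and 5. With the BYHWD and ICH libraries alone the SE was 0.13 (edgeR adjusted p = 0.493), and without sham 4 and 5 the adjusted p by edgeR was 0.674, so it passed in neither (0.493 to 0.9999 over its 24 alternatives). Its exact permutation p, two-sided, was 0.0159 over the 10 libraries, unadjusted.

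The 8 members of the NF-kB and injury list, to which miR-146a, miR-146b, miR-155, miR-147 and miR-21a belong, had values below 0 in 7 cases, with a median of -0.20, and 0 were called. MiR-21a-5p, raised in many injured tissues, was at 17799, 28470, 18948, 19636 and 32547 CPM in BYHWD, against 24243, 28582, 40253, 22562 and 21351 CPM in ICH, overlapping (-0.22, SE 0.21). The myeloid and leukocyte list shares miR-155 and miR-147 with it, and 7 of its 9 members were below 0 (median -0.13). No member of either had an unadjusted edgeR p under 0.05 in the fit with all 15 libraries. With the BYHWD and ICH libraries alone, and without sham 4 and 5, 1 member of the NF-kB and injury list had such a p. The myeloid and leukocyte list had 0 in both. The summed level of the myeloid list was 363, 826, 472, 520 and 587 CPM in BYHWD, against 750, 606, 634, 537 and 648 CPM in ICH, so that BYHWD 2 was the highest and BYHWD 1 the lowest of the 10.

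**Figure D4:**
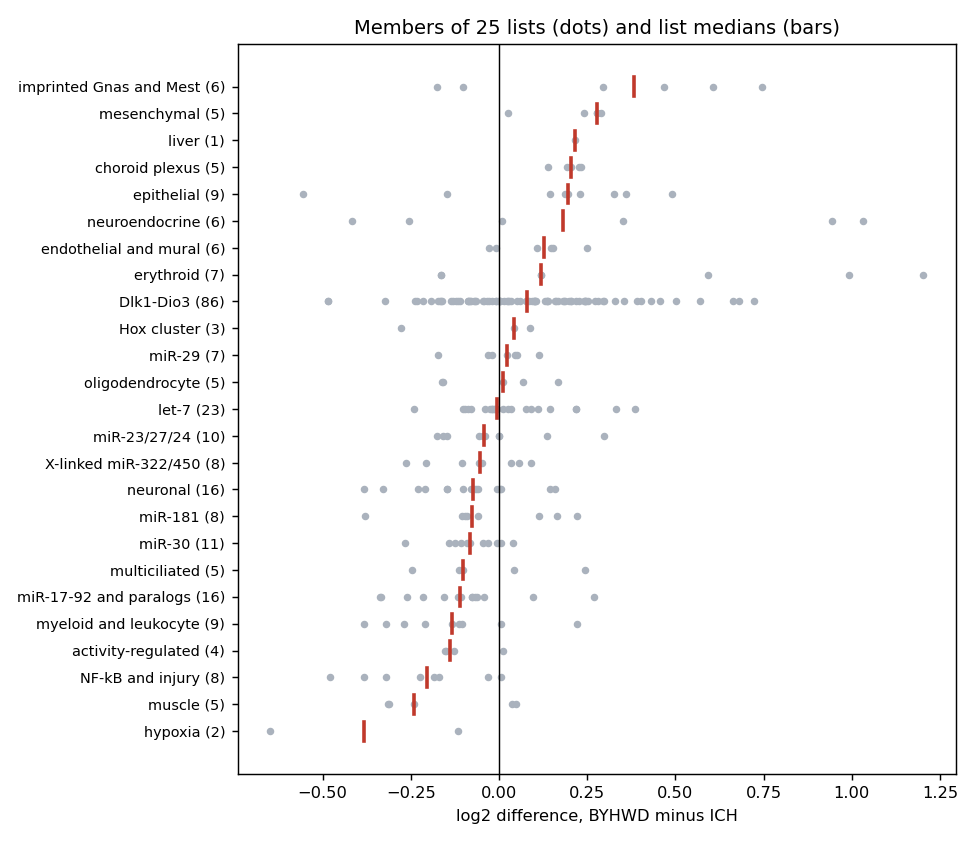
Log2 difference, BYHWD minus ICH, of the members of 25 miRNA lists (dots) with each list's median (red bar) and its number of tested members in parentheses, ordered by median. No member of any list was called, and the medians run from -0.38 for the hypoxia list, which has 2 members, to 0.38 for imprinted Gnas and Mest.

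The 25 lists of cell types, clusters and families hold 268 tested miRNAs, of which 0 were called. Of all 652 miRNAs 48.9% had values below 0. It was 102 of 230 under 10 CPM and 59 of 92 at 1000 CPM and over, so counts of signs also vary with abundance. The neuronal list (miR-9, miR-124, miR-128, miR-129, miR-137, miR-138 and miR-218) had 12 of 16 members below 0 and a median of -0.07, and without BYHWD 4 and 5 it had 7 below 0 and a median of 0.03. Its summed level was 105734 CPM in BYHWD 5, the library highest in miR-7a-5p, and 138946 to 158301 CPM in the other BYHWD libraries, against 135209 to 167398 CPM in ICH. MiR-124-3p, the neuronal miRNA that represses non-neuronal genes, had 0.00 (interval -0.30 to 0.31). The oligodendrocyte list (miR-219a and miR-338) had a median of 0.01, with miR-219a-2-3p at 7911 ± 540 CPM in BYHWD and 8834 ± 791 CPM in ICH (mean ± SD, n = 5 each). MiR-132-3p, induced by neuronal activity, had -0.15 (SE 0.19).

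For vessels, miR-126a-3p of endothelium had -0.01 (interval -0.32 to 0.30). MiR-143-3p of smooth muscle and pericytes had 0.15 (SE 0.24), and -0.05 (SE 0.23) without BYHWD 1, which stood at 33558 CPM against 18260 to 20112 CPM in the other BYHWD libraries and 17790 to 22621 CPM in ICH. The miR-17-92 list, of a cluster tied to cell growth and its paralogs, had 14 of 16 members below 0, beside 48.9% of all miRNAs. The differences were small (median -0.11), and the most abundant member was miR-25-3p (-0.21, SE 0.12). In the miR-30 list 9 of 11 were below 0 (median -0.08), and without BYHWD 4 and 5 it was 6.

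The mesenchymal list, with miR-214 and both miR-199 hairpins of fibroblasts and scar-forming cells, had 5 of 5 members above 0 (median 0.28). It was 4 of 5 with upper-quartile scaling (median 0.20), without ICH 4 (median 0.12) and without BYHWD 4 and 5 (median 0.10). The 3p arms of miR-199a and miR-199b share their reads, and miR-199a-3p was at 280, 369, 184, 343 and 360 CPM in BYHWD, against 191, 265, 360, 135 and 316 CPM in ICH, with overlap (0.28, SE 0.24). The choroid plexus list (miR-204, miR-211 and miR-1298) also had 5 of 5 above 0 (median 0.20), and without ICH 4 it was 3 of 5 (median 0.01). Its summed level was 6012 to 15431 CPM in BYHWD and 2008 to 17654 CPM in ICH, with ICH 4 the lowest of the 10, and the multiciliated list had the same lowest and highest libraries. The first principal component of the 10 libraries, with 32.9% of the variance, ran from BYHWD 5 at 5.87 to ICH 4 at -8.87 and was led by miR-1298-5p, miR-1912-3p, miR-653-5p and miR-448-3p. It did not part the groups. The part of the choroid plexus values in the differences above was not tested.

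The erythroid miRNAs miR-451a, miR-144 and miR-486 mark red blood cells. MiR-451a was at 50.8, 70.6, 58.1, 295 and 53.3 CPM in BYHWD, against 62.7, 86.8, 108, 57.8 and 34.7 CPM in ICH. BYHWD 4 was the exception in a set of overlapping values. The difference of 0.59 (SE 0.55) was -0.27 (SE 0.43) without it, and the list had 5 of 7 members above 0 with all libraries and 1 of 7 without BYHWD 4 and 5. BYHWD 4 was also the highest of the 10 in the summed epithelial list (miR-200 family, miR-141, miR-429 and the miR-183 cluster), at 716 CPM beside 141 to 437 CPM in the other BYHWD libraries and 222.1 to 431 CPM in ICH.

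**Figure D5:**
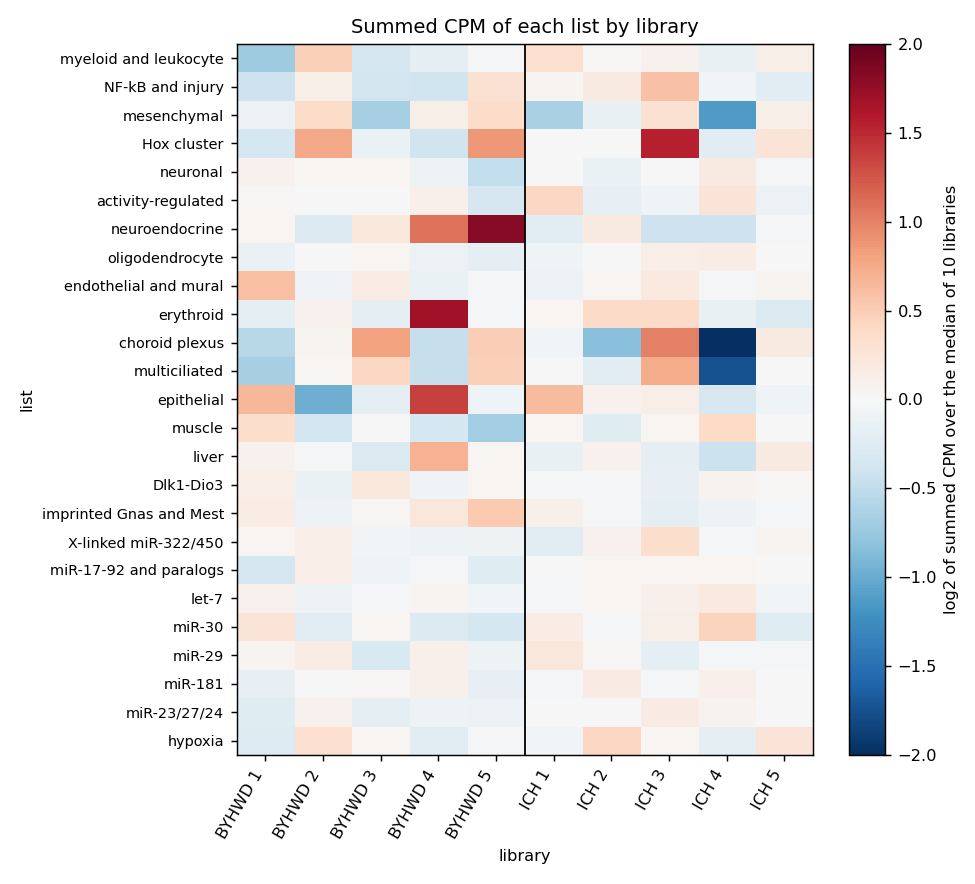
Summed CPM of each of 25 lists in the 5 BYHWD libraries (left of the line) and the 5 ICH libraries (right), as log2 over the median of the 10 libraries. Single libraries stand out more than the groups do, with the neuroendocrine list high in BYHWD 4 and 5 (65014 and 107411 CPM), the erythroid list high in BYHWD 4 and the choroid plexus and multiciliated lists low in ICH 4.

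To ask whether the total dose of a seed differed, counts were summed over miRNAs with the same seed, for the 518 of 652 with a RefSeq sequence. None of the 436 seed families was called (lowest edgeR adjusted p = 0.908), and 22 had an unadjusted p under 0.05 (5.05%). The lowest p-values were those of families with a single tested member, AACAUCC (miR-448-5p, 0.97, SE 0.32), AGGGUUG (miR-296-3p, 0.58, SE 0.21) and AGAUUGU (miR-3086-5p, -0.70, SE 0.25). Among the 48 families with more than 1 member, 2 had an unadjusted p under 0.05. The miR-7 family, GGAAGAC, summed to 35085, 28038, 38895, 73914 and 123808 CPM of the counts with a sequence in BYHWD, against 30165, 40018, 27158, 25822 and 33842 CPM in ICH, a difference of 0.93 (SE 0.37). Sham libraries ranged from 23295 to 74528 CPM, and all but sham 2 lay above the highest ICH library. The family of miR-329-3p and miR-362-3p, ACACACC, had -0.32 (SE 0.14). The let-7 family of 10 members, GAGGUAG, had -0.09 (interval -0.38 to 0.19), so a 1.5-fold difference in its summed level lay outside its interval. Of the 48 families, 40 had intervals within 2-fold and 30 within 1.5-fold.

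The choice of arm was compared through the log2 ratio of 5p to 3p counts within each library, which does not depend on scaling. Of 195 hairpins with both arms tested, none was called with limma (lowest adjusted p = 0.953), and 5 had an unadjusted p under 0.05 (2.56%). MiR-433, a Dlk1-Dio3 hairpin dominated by its 3p arm, had the lowest p. Its log2 ratio was -5.83, -5.71, -5.59, -5.99 and -5.70 in BYHWD, against -5.01, -5.25, -5.39, -5.50 and -5.38 in ICH. All BYHWD ratios lay below all ICH ratios, a difference of -0.46 (SE 0.15). How many of the 195 hairpins had groups without overlap was not counted, so no share stands beside this. MiR-669f had a difference of 1.02 (SE 0.40), with a weaker arm near 1 CPM. MiR-34b, of multiciliated cells, had 0.35 (SE 0.16), with its log2 ratio at 3.97 ± 0.18 in BYHWD and 3.62 ± 0.14 in ICH (mean ± SD, n = 5 each). The groups of miR-34b did not overlap either, with the lowest BYHWD ratio at 3.76 and the highest ICH ratio at 3.75.

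The spread between mice was close in both groups with a bleed. Among 422 miRNAs with at least 10 CPM, the median SD of log2 CPM was 0.23 in BYHWD, 0.21 in ICH and 0.32 in sham, and the SD was larger in BYHWD than in ICH for 233 (55.2%).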

How the data were processed

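Small RNA of 15 mice, 5 per group, was sequenced after NEBNext library preparation and size selection, per the labels' protocols. The authors used cutadapt, Bowtie and edgeR, per the submitters' processing notes, which name the human build hg38 for mouse samples. Versions, and the treatment of reads that match several loci, are not given in the sources used here. Raw counts per mature miRNA were deposited, as whole numbers. Each table holds 929 counts and 928 names, and in 15 of 15 tables the first count equals the library's number, so each count was assigned to the name 1 row above it. Repeated rows of the same name then differed by at most 0.1 in log2 counts in 90 of 103 pairs (87.4%), against 27 (26.2%) as printed. For the 76 names on more than 1 row, only the row of highest total was used, which left 66.6 to 74.8% of all counts. Counts of 36 names equal those of another name within 1% in every library, so the name behind such values is uncertain.

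Totals were 4684611 to 9860236 counts per library, and the intervals include the spread between mice. Counts were scaled by TMM and tested with edgeR 4.0.16 (quasi-likelihood, robust, filterByExpr by group) in R 4.3.3, with all 15 libraries in 1 fit, no covariates and Benjamini-Hochberg adjustment over 652 miRNAs or, for seed sums, 436 families. SE and 95% intervals were derived from the p-value and the fit's degrees of freedom. Arm ratios, with 0.5 added to each count, were tested with limma 3.58.1 over 195 hairpins. The procedure was checked on simulated counts, drawn without any library that stood apart, so the check does not cover such libraries. Each library is 1 mouse, per the labels.

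Named miRNAs were those with the 12 smallest p at 10 CPM or more, the 4 largest differences in each direction at 100 CPM or more, those at 10 CPM or more without overlap, the 8 most abundant, those called in ICH against sham, the most abundant of each list, the 3 with the largest excess of spread in BYHWD at 1000 CPM or more, and the 3 families and hairpins with the smallest p. Members and lists were chosen with earlier results of these data known. Alternatives were DESeq2 1.42.0, limma-voom, other scalings and filters, other sets of libraries and an exact permutation test over 252 splits. RefSeq mature sequences matched 518 of 652 names, and 134 miRNAs had no match and are in no seed family. Positions are those of hairpins in RefSeq on GRCm38.p6, with host genes from the GENCODE annotation of the same build.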

Additional observations from a re-analysis of the deposited data

Results flagged for a closer look

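In 98 groups of 5 values, those of the named miRNAs in BYHWD and in ICH libraries, 3 had a library far from the other 4 by Dixon's criterion (gap over range above 0.71), and chance alone gives about 1 in 20. MiR-143-3p was at 33558 CPM in BYHWD 1, with the nearest BYHWD library at 20112 CPM. MiR-451a was at 295 CPM in BYHWD 4, with the nearest at 70.6 CPM. MiR-10a-5p was at 1513 CPM in ICH 3, with the nearest at 547 CPM. The values without these libraries stand beside each result.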

How the results depend on the processing

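No miRNA was called in any of the 24 alternatives, nor any family or hairpin in theirs, including each fit without replicate 1 to 5 of either group (0 to 0 calls). The lowest adjusted p ran from 0.493 (BYHWD and ICH libraries only, 55 miRNAs at an unadjusted p under 0.05) to 0.9999 (without BYHWD replicate 5, 12 miRNAs). The count at an unadjusted p under 0.05 was 20 of 420 when only means of 10 CPM or more were tested, 49 by exact permutation and 10 without BYHWD 4 and 5. MiR-451a (0.59 with all libraries, -0.27 to 0.81 without 1 replicate) turned in sign, to -0.27 without BYHWD 4 and -0.26 without BYHWD 4 and 5, from 1 library at 295 CPM. Other values that crossed 0 and moved by more than their SE were miR-10a-5p without ICH 3 (0.25) and miR-200a-3p without BYHWD 4 (-0.20) and without BYHWD 4 and 5 (-0.28). Intervals within 2-fold numbered 565 of 632 tested with the 10 libraries alone and 528 of 652 with the replicate block, beside 534 of 652 in the main fit. With DESeq2's size factors 5 miRNAs had no overlap. Same-numbered BYHWD and ICH libraries had correlations of deviations from -0.08 to 0.28, and 1 of 5 BYHWD libraries matched its own number best. No clear pairing by number was seen, though 5 such pairs are too few to exclude it. With the replicate block 0 were called and 22 had an unadjusted p under 0.05. Intervals lay within 2-fold for 69.6% of miRNAs under 10 CPM, 84.5% at 10 to 100 CPM, 94.2% at 100 to 1000 CPM and 89.1% at 1000 CPM and over, and the part of depth in this was not tested.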
